A study of Mus musculus with 16 samples.

Results

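Transcripts of 8 cytokine genes that B cells can express were followed through the stages of positive selection in the germinal center (GC), namely Il10, Il6, Tnf, Lta, Ltb, Ebi3, Il12a and Tgfb1. They were picked by gene symbol from the 51912 genes of the normalized count table, each symbol matched 1 row, and each was read in all 16 libraries. The libraries are bulk RNAseq of cMyc+ GC B cells from the spleen of cMyc gfp/gfp mice on a C57BL/6J background, males and females of 6 to 15 weeks, on day 7 after immunization with sheep red blood cells. In these mice GFP is fused to cMyc at its own locus, so that GFP marks cells holding cMyc protein, and all 4 subpopulations carry this allele and the same immunization. CD43-negative splenocytes were sorted as B220+ CD38low CD95+ GFP+ cells and divided by surface protein. The cMyc+prePB cells, candidate plasmablast precursors, were CD69hi. In the paper's gating these cells and then the CXCR4hi CD86lo cells of the GC dark zone were set aside, and the remaining light zone cells were divided. The cMyc+early cells were high for CD23 and CD21/35, the cMyc+lateCD23int cells intermediate for CD23, and the cMyc+lateCD23lo cells low. CXCR4 and CD86 were not used to define cMyc+prePB, which the paper found to be mostly but not only light zone cells. Each subpopulation has 4 libraries with replicate numbers, and the labels do not say whether these came from separate animals or from pools, so the p-values measure only the spread between these libraries.

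B cells are known mainly for antibodies, but they also secrete cytokines. IL-10 restrains inflammatory responses of macrophages, dendritic cells and T cells and is the defining product of regulatory B cells. EBI3 is a secreted subunit that pairs with IL-27p28, encoded by Il27, to form IL-27, and with IL-12p35, encoded by Il12a, to form IL-35. TNF and the lymphotoxins, encoded by 3 adjacent genes, organize lymphoid tissue, and membrane lymphotoxin on B cells maintains follicular dendritic cells. IL-6 and TGF-beta1 act on T cell help and on antibody class switching.

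The sequences upstream of the start sites of 3 members are given first, because they belong to a member called between cMyc+prePB and cMyc+lateCD23lo (Ebi3), to the most abundant member (Ltb) and to the member without a single read (Il6). They are RefSeq sequences of GRCm38.p6, read 5′ to 3′ on the strand of the gene, all on the plus strand. Those of Ebi3 and Il6 are the 250 bases before the RefSeq start. For Ltb the last 68 of these bases were left off because the GENCODE gene already begins there. Capitals mark matches to any of 6 motifs searched on both strands, the TATA box as TATAAA, the AP-1 site as TGANTCA, the kappaB site as GGGANTTTC, the E-box as CACGTG, the STAT site as TTCNNNGAA and the interferon response element as GAAANNGAA, where N is any base.
Ebi3, chr17:55952373-55952622: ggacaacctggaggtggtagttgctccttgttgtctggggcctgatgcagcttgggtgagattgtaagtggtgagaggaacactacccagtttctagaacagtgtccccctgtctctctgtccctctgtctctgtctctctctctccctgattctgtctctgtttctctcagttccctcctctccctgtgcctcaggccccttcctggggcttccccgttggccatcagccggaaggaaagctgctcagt
Ltb, chr17:35194257-35194438: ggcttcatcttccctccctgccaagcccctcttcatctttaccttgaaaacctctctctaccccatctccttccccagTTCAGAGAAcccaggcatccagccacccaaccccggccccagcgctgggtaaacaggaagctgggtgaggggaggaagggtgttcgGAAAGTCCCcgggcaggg
Il6, chr5:30012864-30013113: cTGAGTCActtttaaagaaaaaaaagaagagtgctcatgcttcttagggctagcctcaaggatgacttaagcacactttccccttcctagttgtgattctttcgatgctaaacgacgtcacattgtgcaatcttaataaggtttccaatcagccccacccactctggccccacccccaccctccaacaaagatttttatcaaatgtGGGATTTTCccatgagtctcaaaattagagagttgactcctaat

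The promoter table held 7 of the 8 members, not Il10. A kappaB match stood in the windows of Ltb, on the minus strand and 86 bases before the start, and of Il6, 44 bases before it. Among all 32851 promoter windows of 250 bases, 0.941% held this motif. The STAT motif, held by 7.02% of all windows, was found in Ltb and at 2 places in Lta, and the AP-1 motif, held by 6.75%, in Il6. TATAAA stood 29 bases before the start of Tnf and 167 bases before that of Lta, and in 12.4% of all windows. None of the 6 motifs was found in the window of Ebi3, in either of the 2 windows of Il12a or in that of Tgfb1, and no member held the E-box or interferon motif, which 6.02% and 7.13% of all windows held. A match describes letters only and says nothing of binding.

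Recovered reads per library ranged from 19812080 to 25795815, and correlations of log2 values between libraries from 0.825 to 0.916. The unit below is the normalized count, a read count divided by the size factor of its library. A gene at or under 3 reads, which is a normalized count of 2.48 to 3.23 depending on the library, was taken as not measurable, and this floor covers counting error only since the reads have no molecular identifiers. B cell markers such as Cd79a and GC markers such as Bcl6 were above the floor in all 16 libraries. Of the markers used for the sort, Fcer2a (CD23) had more transcript in cMyc+early than in cMyc+lateCD23lo (log2 difference 2.63, adjusted p = 0.00434 in limma) and Cr2 (CD21/35) had less in cMyc+prePB than in cMyc+early (log2 difference -1.90, adjusted p = 0.0269). Cd69 transcripts did not follow the CD69 gate, with means from 2277 in cMyc+lateCD23lo to 3762 in cMyc+lateCD23int and 3453 in cMyc+prePB, and passed no test (lowest adjusted p = 0.471).

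Read per kb of exon, which allows genes to be compared, the members spanned a wide range of levels. Ltb was the highest, with group means of 4147 to 8391 normalized counts per kb, followed by Ebi3 with 628 to 1443 and Lta with 299 to 507. Il12a (84.6 to 206) and Tnf (96.3 to 167) lay lower, and Tgfb1 lowest of the genes with reads everywhere (17.4 to 23.9). Il10 ran from 0.936 in cMyc+early to 114 in cMyc+lateCD23lo. By ranges pooled over libraries, only Ltb stood clear of its neighbor in this order, its lowest library (2954 per kb) lying above the highest of Ebi3 (1677 per kb). The pooled ranges of all other neighbors in the order overlapped. Within each single library, however, Ebi3 lay above Lta and Lta above Il12a.

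**Figure D1:**
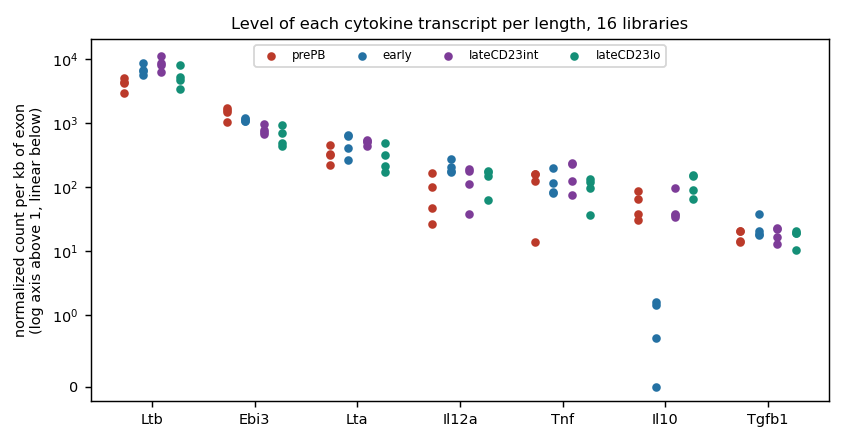
Level of each of 7 cytokine genes in normalized counts per kb of exon (vertical, logarithmic above 1 and linear below), with 1 point per library colored by subpopulation. Ltb lies above all others, and the 4 cMyc+early points of Il10 lie at 0 to 1.60 per kb while its other 12 points lie at 30.3 or more. Il6, with 0 reads in every library, is not drawn.

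Il10 was measurable in every subpopulation but cMyc+early. The gene lies on chr1:131019845-131024974 of GRCm38, plus strand, in 5 exons (ENSMUSG00000016529). In cMyc+prePB its normalized counts were 83.8, 112, 50.5 and 39.7 in replicates 1 to 4 (mean 71.4 ± 32.8 SD, n = 4). In cMyc+early they were 2.10, 0.885, 1.92 and 0, from 2, 1, 2 and 0 reads. All 4 cMyc+early libraries were thus at or under the floor, and all 12 other libraries were above it.

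In cMyc+lateCD23int the normalized counts of Il10 were 47.8, 127, 44.6 and 49.3 (67.2 ± 40.0, n = 4), and in cMyc+lateCD23lo 116, 199, 84.6 and 198 (150 ± 58.1, n = 4). The lowest of these 12 values, 39.7, belonged to cMyc+prePB replicate 4. The 3 measurable subpopulations overlapped with each other in every pairing. In bulk samples, fewer cells that transcribe a gene and less RNA in each such cell cannot be told apart.

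Il10 passed the multigroup comparison (adjusted p = 0.000722, F test in limma over 12505 genes). Against cMyc+early, the level of Il10 in cMyc+prePB was higher by 5.04 ± 0.68 (SE) on the scale of log2(normalized count + 1), with an adjusted p of 0.00429 in limma. That in cMyc+lateCD23int was higher by 4.92 ± 0.68 (adjusted p = 0.0120), and that in cMyc+lateCD23lo by 6.12 ± 0.68 (adjusted p = 0.000518). These 3 comparisons share the cMyc+early libraries and are not independent of each other.

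As a ratio of reads, the cMyc+early subpopulation had 5 Il10 reads in all, against 313 in cMyc+prePB, 269 in cMyc+lateCD23int and 598 in cMyc+lateCD23lo. The level of cMyc+prePB was 60.8 times that of cMyc+early (exact 95% interval 25.8 to 188), that of cMyc+lateCD23int 56.5 times (23.9 to 176) and that of cMyc+lateCD23lo 128 times (54.5 to 395), intervals that cover counting error only. The subpopulations with measurable Il10 did not pass the test against each other, with adjusted p of 0.984 for cMyc+prePB against cMyc+lateCD23int, 0.519 against cMyc+lateCD23lo, and 0.816 for cMyc+lateCD23int against cMyc+lateCD23lo. Their order, highest in cMyc+lateCD23lo, is therefore not settled. The 95% interval of the log2 difference was -2.63 to 0.229 for cMyc+lateCD23int against cMyc+lateCD23lo. For cMyc+prePB against cMyc+lateCD23lo it was -2.51 to 0.349.

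The comparison of cMyc+lateCD23lo with cMyc+early kept its call in all 30 alternative settings, with adjusted p from 1.58e-11 to 0.0191. That of cMyc+lateCD23int with cMyc+early lost it without cMyc+early replicate 4 (adjusted p = 0.0523), without cMyc+lateCD23int replicate 2 (0.118) and without cMyc+lateCD23int replicate 4 (0.0575), and in 7 other alternatives. The comparison of cMyc+prePB with cMyc+early lost it when 2 groups were fitted alone (adjusted p = 0.146).

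Reads at or under the floor in one whole subpopulation and above it in all 12 other libraries were rare. Of the 12505 tested genes, 2 showed this for cMyc+early, Il10 and Osbpl3, a gene for a sterol-binding protein. The same pattern held for 2 genes in cMyc+prePB, 0 in cMyc+lateCD23int and 1 in cMyc+lateCD23lo. Osbpl3 was also the tested gene whose log2 values followed Il10 most closely over the 16 libraries (Pearson r = 0.907). It had 190, 219, 52 and 43 reads in cMyc+prePB, 0, 2, 2 and 1 in cMyc+early, 8, 76, 59 and 120 in cMyc+lateCD23int and 31, 219, 37 and 121 in cMyc+lateCD23lo.

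The next genes in likeness were Apoe (r = 0.882), encoding a lipid carrier, and Rgs10 (r = 0.866), encoding a regulator of G protein signalling. Apoe had a mean normalized count of 2426 in cMyc+early and of 5188 to 7492 in the others, and Rgs10 267 against 586 to 873. The 16 points share their libraries and the separation of cMyc+early from the rest, so these r describe the pattern and carry no test. Within 100 kb of Il10 lie Il19, listed at 0 reads in all 16 libraries, and Mapkapk2, whose kinase stabilizes cytokine mRNAs. Mapkapk2 was above the floor in all 16 libraries, with group means of 149 to 200, and was not called in any comparison.

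**Figure D2:**
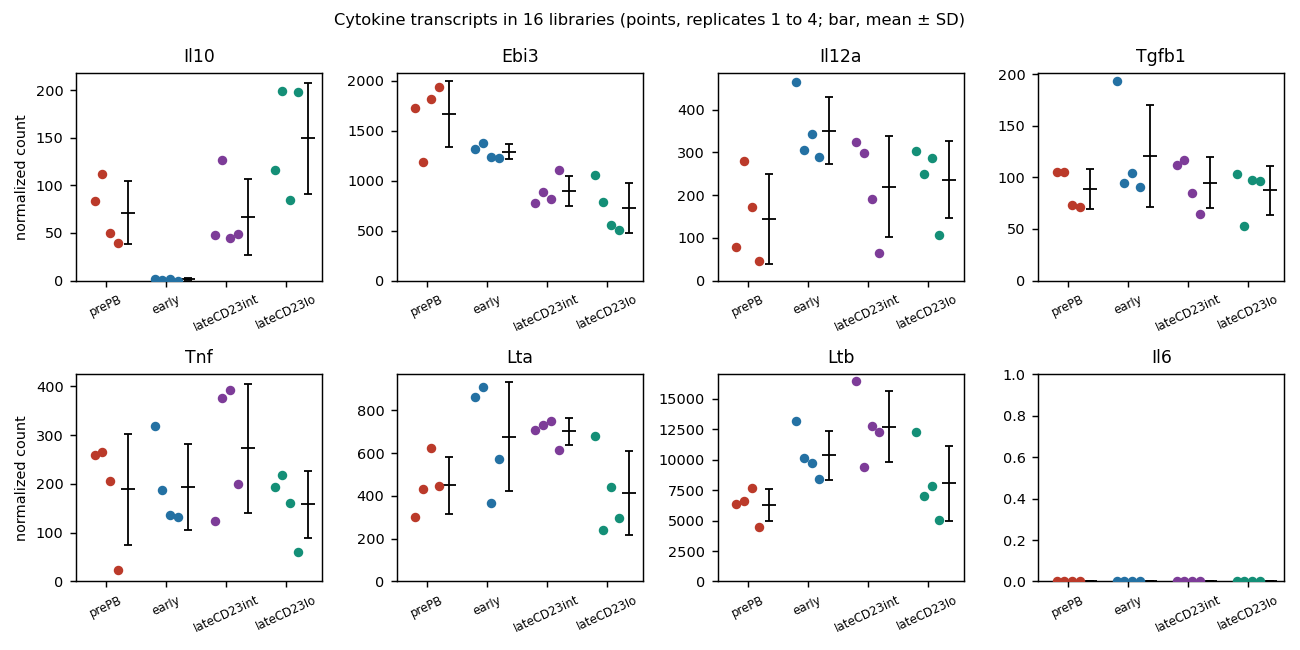
Normalized count (vertical, from 0) of each of the 8 genes by subpopulation, with 1 point per library in the order of replicate numbers 1 to 4 and a bar for mean ± SD. The 4 cMyc+early libraries lie at the foot of the Il10 panel, Ebi3 is highest in cMyc+prePB (mean 1665) and lowest in cMyc+lateCD23lo (mean 724), and Il6 is at 0 throughout.

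T cells, macrophages and plasma cells also make IL-10, and their markers were read beside it. Without Lck, which GC B cells express (group means of 3133 to 5808 here), the 7 other T cell markers summed to 12.6 to 72.2 in cMyc+early, 49.6 to 206 in cMyc+prePB, 58.1 to 93.9 in cMyc+lateCD23int and 104 to 156 in cMyc+lateCD23lo. All 8 T cell markers were above the floor in at least 1 library, and 0 of the 4 tested were called. The single markers differed. Trac, Cd28 and Cd4 had their highest means in cMyc+lateCD23lo (66.7, 35.9 and 4.58), as did Il10. Cd3d, Cd3e, Cd3g and Cd8a had theirs in cMyc+prePB (25.2, 7.87, 12.2 and 16.5), against 9.78, 0, 0.255 and 12.9 in cMyc+lateCD23lo. Trac was above the floor in all 16 libraries, with 118 reads in cMyc+lateCD23lo replicate 2, which had the most Il10 reads of all (213). Cd3e was at 0 reads in all 4 cMyc+lateCD23lo libraries. It was above the floor only in cMyc+prePB replicate 4 (34 reads) and cMyc+lateCD23int replicate 4 (33 reads), which had 44 and 53 Il10 reads.

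Macrophage and monocyte markers, 7 of 8 above the floor somewhere, summed to 203 to 388 in cMyc+early, 307 to 953 in cMyc+prePB, 268 to 927 in cMyc+lateCD23int and 756 to 1438 in cMyc+lateCD23lo. Cd14 was at or under the floor in every library, Csf1r was above it in 3 and Adgre1 in 3. Lyz2, Adgre1 and Cd68 had their highest means in cMyc+lateCD23lo (390, 61.5 and 505), as did Il10, against 61.9, 0.488 and 221 in cMyc+early. Itgam and C1qb had theirs in cMyc+prePB, and Csf1r and C1qa in cMyc+lateCD23int. Lyz2 had 297, 0, 950 and 267 reads in cMyc+lateCD23lo replicates 1 to 4. In cMyc+lateCD23lo replicate 2 Cd68 had 805 reads, the most of any library.

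The 7 plasma cell markers summed to 32226 to 39886 in cMyc+early, 48465 to 122980 in cMyc+prePB, 39703 to 70854 in cMyc+lateCD23int and 67063 to 104865 in cMyc+lateCD23lo, most of it Jchain, the joining chain of polymeric antibody. Jchain had fewer counts in cMyc+early than in cMyc+lateCD23lo (log2 difference -1.44, adjusted p = 0.0394). Sdc1, the defining plasma cell surface marker, was above the floor in 3 of 16 libraries. Prdm1, encoding the plasma cell factor Blimp-1, had 2, 9, 0 and 1 reads in cMyc+early, 6, 144, 10 and 7 in cMyc+prePB, 99, 128, 35 and 62 in cMyc+lateCD23int and 84, 142, 10 and 96 in cMyc+lateCD23lo, and was not called by limma (lowest adjusted p = 0.0893) but was by DESeq2. Without the 3 libraries with Sdc1 above the floor, the Il10 difference of cMyc+prePB from cMyc+early was 4.75 with an adjusted p of 0.0626, and that of cMyc+lateCD23lo kept its call. The part of these markers in the Il10 values was not tested.

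**Figure D3:**
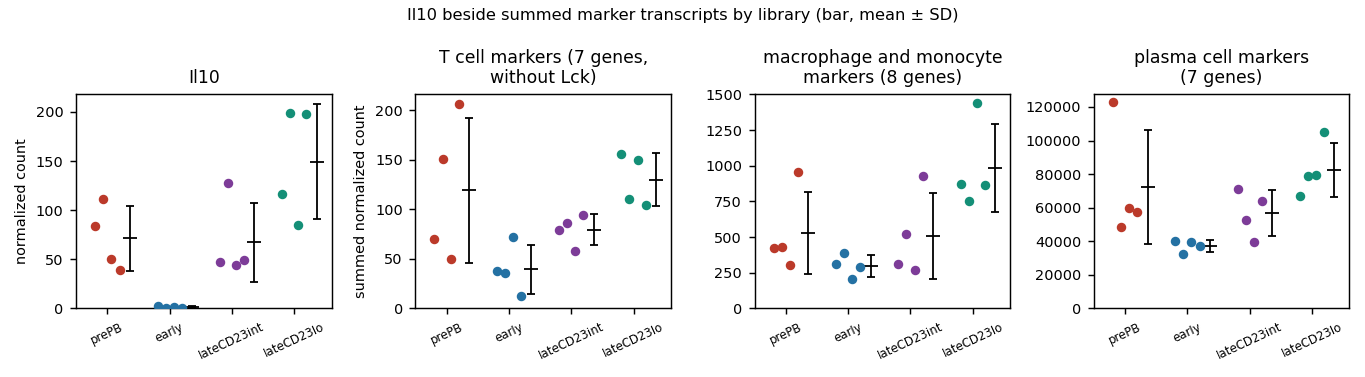
Normalized count of Il10 and summed normalized counts of T cell markers without Lck, macrophage and monocyte markers and plasma cell markers (vertical, from 0), 1 point per library with mean ± SD. The cMyc+early libraries have the lowest mean in all 4 panels. In the Il10 panel they lie at or under the floor of 3 reads, which applies to single genes and not to sums. Of the single markers in these sums, Cd3e, Cd28 and C1qa were at 0 in all cMyc+early libraries, while Trac and Cd68 were above the floor in all 16 libraries.

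Ebi3 was highest in cMyc+prePB. It lies on chr17:55952640-55957022, plus strand, in 5 exons (ENSMUSG00000003206). Its normalized counts were 1721, 1185, 1819 and 1935 in cMyc+prePB (1665 ± 332 SD, n = 4) and 1314, 1379, 1237 and 1222 in cMyc+early (1288 ± 72.9). They were 774, 889, 819 and 1106 in cMyc+lateCD23int (897 ± 147) and 1051, 789, 555 and 503 in cMyc+lateCD23lo (724 ± 251). Every cMyc+prePB library lay above every library of both late subpopulations, and so did every cMyc+early library, while cMyc+prePB and cMyc+early overlapped, as did the 2 late subpopulations.

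Between cMyc+prePB and cMyc+lateCD23lo, Ebi3 differed by 1.24 ± 0.23 (SE) on the log2 scale, higher in the first (adjusted p = 0.0245, limma). Neighbors in the order of levels did not pass, with adjusted p of 0.746 for cMyc+prePB against cMyc+early, near 1 for cMyc+early against cMyc+lateCD23int and 0.843 between the late subpopulations. In the multigroup comparison its adjusted p was 0.0536. The call was lost without cMyc+prePB replicate 3 (adjusted p = 0.0850), without cMyc+prePB replicate 4 (0.113), without cMyc+lateCD23lo replicate 3 (0.103) and without cMyc+lateCD23lo replicate 4 (0.0910). It was also lost in 4 other alternatives, among them without both libraries with Cd3e above the floor (0.136). The log2 difference stayed between 1.08 and 1.44 in all 30 alternatives.

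The gene overlaps Gm16712 on the opposite strand. The library kit does not mark strand, so reads of the shared stretch cannot be told apart, and Gm16712 itself had 12.2 to 149 normalized counts. Over the 16 libraries the closest patterns to Ebi3 were those of Fam212a (r = 0.856), Gadd45g (0.849), Batf (0.804), Stat5a (0.798) and Ccnd2 (0.787). Gadd45g, a stress response gene, fell in mean from 1218 in cMyc+prePB to 806, 562 and 345 in cMyc+early, cMyc+lateCD23int and cMyc+lateCD23lo. Of 11 protein-coding genes within 100 kb of Ebi3, 8 were tested and limma and edgeR called 0 in any comparison, with 2 at an unadjusted p under 0.05 in limma, while DESeq2 called Adgre4.

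The partner subunits of EBI3 did not share one pattern. Il27 had 0, 136, 143 and 191 normalized counts in cMyc+prePB, so 3 of these 4 libraries were high and 1 had no read. Elsewhere Il27 ranged from 0 to 26.2, and 5 of those 12 libraries were above the floor. The groups overlapped because of cMyc+prePB replicate 1, and no comparison was called (lowest adjusted p = 0.308).

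Il12a, on chr3:68690644-68698547, plus strand, is the subunit shared by IL-12 and IL-35. Its normalized counts were 79.5, 280, 171 and 45.1 in cMyc+prePB (144 ± 105, n = 4), 464, 306, 343 and 290 in cMyc+early (351 ± 78.9), 324, 299, 191 and 64.1 in cMyc+lateCD23int (220 ± 119) and 303, 249, 287 and 107 in cMyc+lateCD23lo (237 ± 89.3). All 4 cMyc+prePB libraries lay below all 4 cMyc+early libraries, the subpopulation in which Il12a was highest, with the nearest pair at 280 and 290. The log2 difference was -1.58 ± 0.58 (SE) and did not pass (adjusted p = 0.430, limma). Il12b, the other subunit of IL-12, was above the floor in 5 libraries only, 3 of them cMyc+lateCD23lo. Both protein-coding genes within 100 kb of Il12a were at or under the floor in all 16 libraries.

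**Figure D4:**
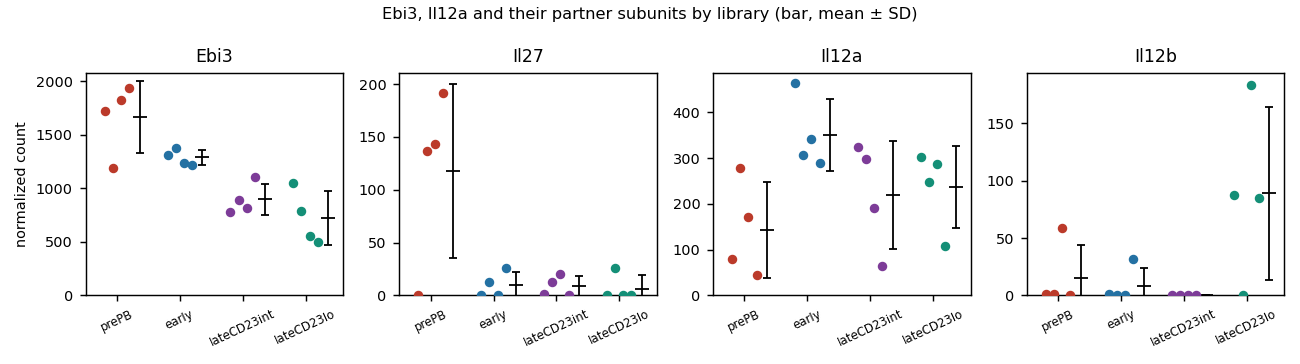
Normalized counts (vertical, from 0) of Ebi3, Il27, Il12a and Il12b by subpopulation, 1 point per library with mean ± SD. Il27 is high in 3 of 4 cMyc+prePB libraries, and Il12a has its highest mean in cMyc+early (351).

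The TNF and lymphotoxin genes lie side by side on chromosome 17, Ltb at chr17:35194439-35196320 on the plus strand, Tnf at chr17:35199381-35202007 and Lta at chr17:35203165-35205351 on the minus strand. None of them passed the limma test, which did not use the replicate numbers, in any comparison. With these numbers in the model, Ltb was called in cMyc+prePB against cMyc+lateCD23int, as given at the end. Ltb anchors the lymphotoxin heterotrimer in the membrane. Its normalized counts were 6370, 6592, 7705 and 4478 in cMyc+prePB (6286 ± 1340, n = 4) and 13190, 10115, 9756 and 8452 in cMyc+early (10378 ± 2006). In cMyc+lateCD23int they were 16431, 9379, 12790 and 12281 (12720 ± 2894), and in cMyc+lateCD23lo 12315, 6998, 7848 and 5071 (8058 ± 3067).

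Every cMyc+prePB library had less Ltb than every cMyc+early and every cMyc+lateCD23int library. The largest difference, cMyc+prePB against cMyc+lateCD23int, was -1.02 ± 0.24 (SE) on the log2 scale, with an unadjusted p of 0.000464 and an adjusted p of 0.108 in limma. The DESeq2 test on recovered reads called it (adjusted p = 0.00710). Ltb followed Cd79a, a chain of the B cell receptor complex (r = 0.895), and Id3, an inhibitor of E proteins (r = 0.890), most closely over the 16 libraries. Cd79a had a mean of 20920 in cMyc+prePB and of 24497 to 28545 elsewhere, and was not called.

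Lta encodes lymphotoxin alpha, which is secreted or pairs with lymphotoxin beta. Its normalized counts were 302, 431, 626 and 445 in cMyc+prePB (451 ± 133, n = 4), 865, 908, 367 and 571 in cMyc+early (677 ± 256), 708, 733, 752 and 613 in cMyc+lateCD23int (701 ± 61.3) and 679, 239, 441 and 295 in cMyc+lateCD23lo (413 ± 197). All groups except cMyc+lateCD23int spread widely, and every pair of groups overlapped. Between the highest and the lowest mean, cMyc+lateCD23int against cMyc+lateCD23lo, the log2 difference was 0.87 ± 0.35 (adjusted p = 0.754). Across the 16 libraries Lta and Ltb had a Pearson r of 0.702 and a Spearman rho of 0.741, a description over libraries that share depth and grouping.

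Tnf encodes tumor necrosis factor, which acts through TNFR1 and TNFR2. Its normalized counts were 260, 265, 206 and 22.5 in cMyc+prePB (189 ± 114, n = 4), 320, 187, 137 and 132 in cMyc+early (194 ± 87.6), 123, 377, 392 and 201 in cMyc+lateCD23int (273 ± 132) and 193, 218, 160 and 60.2 in cMyc+lateCD23lo (158 ± 69.3). All groups overlapped, and the log2 difference of cMyc+lateCD23int from cMyc+lateCD23lo, the highest and lowest means, was 0.79 ± 0.69 (adjusted p = 0.883). The lowest library of all, cMyc+prePB replicate 4, lay well below the other 3 of its group. Of 16 other protein-coding genes within 100 kb of Tnf, Lta or Ltb, 12 were tested and limma, edgeR and DESeq2 called 0 in any comparison, with 3 at an unadjusted p under 0.05 in limma.

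Tgfb1 lies on chr7:25687002-25705077, plus strand, and encodes latent TGF-beta1. It was low, at 52.4 to 194 over the libraries. Its normalized counts were 105, 105, 73.0 and 71.2 in cMyc+prePB (88.7 ± 19.1, n = 4) and 194, 94.7, 104 and 90.3 in cMyc+early (121 ± 49.1). They were 112, 117, 85.1 and 64.1 in cMyc+lateCD23int (94.7 ± 24.8) and 103, 52.4, 97.9 and 96.9 in cMyc+lateCD23lo (87.7 ± 23.7). All groups overlapped, and the log2 difference of cMyc+early from cMyc+lateCD23lo, the highest and lowest means, was 0.43 ± 0.46 (adjusted p = 0.783). Il6, on chr5:30013114-30019981, had 0 reads in all 16 libraries, which allows up to 3 reads in each, and was not tested. Of its 4 neighbors within 100 kb, Tyms and Hadha were above the floor in all 16 libraries.

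Counted over all members, 7 of the 8 passed the filter of a mean of at least 10 and were tested, and only Il6 did not. Il10 alone passed the multigroup comparison, which called 0.408% of all tested genes. In cMyc+prePB against cMyc+early, 1 of 7 members was called (Il10) where 0.192% of all genes were, and 3 did not overlap (Il10, Ltb and Il12a) where 4.23% of all genes did not. In cMyc+early against cMyc+lateCD23int, Il10 was the single gene called of 12505, 0.008%, and 2 members did not overlap (Il10 and Ebi3) where 2.48% of all genes did not. In cMyc+early against cMyc+lateCD23lo, Il10 was called where 0.28% of genes were, and the same pair of members did not overlap where 6.23% of genes did not.

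In cMyc+prePB against cMyc+lateCD23int, 0 of 7 members were called by limma at an adjusted p under 0.05 where 0.144% of genes were, although Ltb and Ebi3 had unadjusted p of 0.000464 and 0.00142. edgeR called 0 members there and DESeq2 called these 2. Ltb and Ebi3 also did not overlap, where 5.21% of all genes did not. In cMyc+prePB against cMyc+lateCD23lo, Ebi3 was called where 0.264% of genes were, and was the 1 member that did not overlap, where 6.56% of genes did not. Between the late subpopulations 0 members were called by limma where 0.008% of genes were, and 0 did not overlap where 3.77% of genes did not. Lta and Ltb had unadjusted p of 0.0215 and 0.00841 there, and edgeR and DESeq2 also called 0 members. The median log2 difference of the 7 members lay between -0.68 (cMyc+prePB against cMyc+lateCD23int) and 0.43 (cMyc+early against cMyc+lateCD23lo), where the medians of all tested genes were -0.02 and -0.01.

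**Figure D5:**
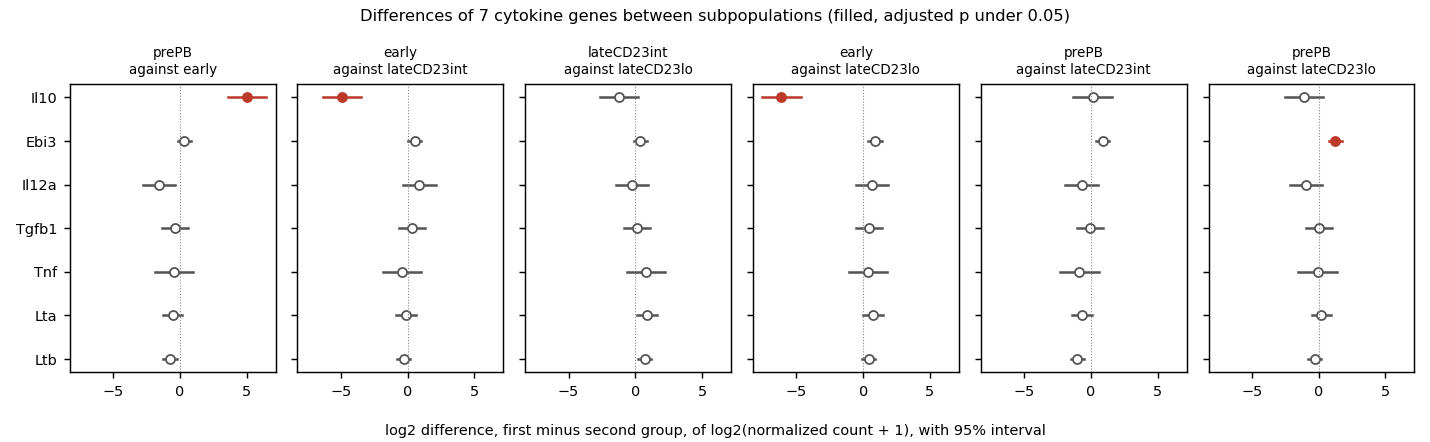
Log2 difference with its 95% interval (horizontal) for 7 members in the 6 comparisons, first named group minus second, filled red where the adjusted p is under 0.05. The 3 comparisons that involve cMyc+early show the large Il10 differences of 5.04, -4.92 and -6.12, and Ebi3 is filled in cMyc+prePB against cMyc+lateCD23lo at 1.24.

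Receptors for these cytokines were mostly present and were not called. Of 13 receptor genes, 9 were tested and 0 called in any comparison. Il10rb, the shared signalling chain for IL-10, had group means of 440 to 611, and Il10ra, the specific chain, of 20.9 to 87.6. Tnfrsf1a (TNFR1) and Ltbr, the lymphotoxin beta receptor, had 0 reads in all 16 libraries, whereas Tnfrsf1b (TNFR2) was above the floor in all 16, with means of 134, 24.6, 83.5 and 54.5 in cMyc+prePB, cMyc+early, cMyc+lateCD23int and cMyc+lateCD23lo. Tgfbr1 and Tgfbr2 had means of 462 to 575 and 497 to 674.

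Among 14 further TNF superfamily ligands, 6 were tested. limma called 1, edgeR 0 and DESeq2 2, Tnfsf9 and Cd70. Tnfsf9, the ligand of CD137, had a mean of 2217 ± 879 in cMyc+prePB and of 795 ± 214 in cMyc+early, higher by 1.43 on the log2 scale (adjusted p = 0.0450, limma). The median difference of the 6 was 1.77 where that of all genes was 0.01. This median is partly fixed by the filter and is not read as a shift. Tnfsf4 passed the filter only through cMyc+prePB, with a mean of 46.5 there and of 0.269 to 7.23 elsewhere. So did Tnfsf13b, with means of 32.4 in cMyc+prePB and of 0, 20.6 and 5.13 in cMyc+early, cMyc+lateCD23int and cMyc+lateCD23lo. Of 11 partner subunits and relatives of the members 4 were tested and 0 called, and of 17 other interleukins and growth factors 4 were tested and 0 called. Il1b, Il9, Il13, Il17a, Ifng and Csf2 had 0 reads in every library. Of 8 chemokines 5 were tested and 0 called, Ccl22 coming nearest in the multigroup comparison (adjusted p = 0.0530).

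Of 12 transcription factors linked to Il10 in B or T cells, 11 were tested. limma and edgeR called 2 of them, and DESeq2 called 6, these 2 and Prdm1, Nfil3, Stat3 and Pou2af1. Over all tested genes, limma called 1 to 35, edgeR 1 to 31 and DESeq2 15 to 273 in a single comparison. The share of all genes called in any comparison, to set beside this and the other lists, was not computed. Bhlhe41, a repressor, had its highest mean in cMyc+early (454 ± 104). The log2 difference of cMyc+prePB (99.7 ± 25.6) from it was -2.18 (adjusted p = 0.0269), and cMyc+early lay above cMyc+lateCD23lo (58.5 ± 10.6) by 2.92 (adjusted p = 0.00183). Batf, an AP-1 family factor, was highest in cMyc+prePB (5987 ± 904), above cMyc+lateCD23int (2492 ± 407) by 1.27 (adjusted p = 0.00666) and above cMyc+lateCD23lo (1931 ± 195) by 1.62 (adjusted p = 0.000225). The median differences of these 11 factors were 0.30 in cMyc+prePB against cMyc+early, 0.30 in cMyc+early against cMyc+lateCD23lo, and 0.13 and 0.54 in cMyc+prePB against cMyc+lateCD23int and cMyc+lateCD23lo. Those of all tested genes were 0.01, -0.01, -0.02 and -0.01 in the same order. Maf, a factor for Il10 in T cells and macrophages, was above the floor in 2 libraries.

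Surface proteins reported on regulatory B cells gave 1 call in limma among 12 tested of 13. Cd9, a tetraspanin, had a mean of 254 ± 122 in cMyc+early and of 968 ± 328 in cMyc+lateCD23lo, a log2 difference of -2.04 (adjusted p = 0.0394). The median difference of the 12 genes, 0.20, had the opposite sign. Cd1d1 and Cd5 were not called. Of 10 AU-rich element binding proteins, which control the decay of cytokine mRNAs, all 10 were tested and 0 called, and the same held for all 8 genes of IL-10 signalling and response. Of 12 genes for the activation and signalling of TGF-beta 9 were tested and 0 called, Nrros coming nearest (adjusted p = 0.0512). Dendritic cell, NK cell and stromal cell markers had 3 of 5, 2 of 4 and 1 of 5 tested and 0 called, as had all 6 B cell and all 6 GC markers, and Jchain was the 1 gene called of 6 tested plasma cell markers.

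Counts of 0 calls by limma for a list do not show that its genes were level. At an unadjusted p under 0.05 in at least 1 comparison, limma had 3 receptor genes, 4 partner subunits and relatives, 1 other interleukin or growth factor, 4 chemokines, 4 AU-rich element binding proteins, 4 genes of TGF-beta activation and 4 of IL-10 signalling. Of markers in lists with 0 calls it had 6 B cell, 3 GC, 1 T cell, 1 macrophage, 2 dendritic cell, 2 NK cell and 1 stromal cell gene. Of all 12505 tested genes, 464 to 1588 were under this p in a single comparison. The share in at least 1 comparison was not computed, so these counts are not read as a result about the lists. Among these lists edgeR called 1 gene, in TGF-beta activation. The genes called by DESeq2 included Tgfb3 among the relatives, Ccl5 and Ccl22 among the chemokines, Nrros and Smad7 in TGF-beta activation and Stat3 and Il1rn in IL-10 signalling. Among the cell type marker lists, DESeq2 called Cd22, Bcl6, Rgs13, Lck, Adgre1, Jchain and Prdm1. Tgfb3, Il1rn and Adgre1 passed the filter only through the group where each was highest, and their calls are not read as differences. Tgfb3 (mean 48.2) and Adgre1 (61.5) were highest in cMyc+lateCD23lo and Il1rn (93.7) in cMyc+prePB. They were above the floor in 5, 3 and 4 of 16 libraries. Of the listed genes that limma called outside the sorting markers, Bhlhe41 and Batf were called by edgeR and DESeq2 as well, whereas Tnfsf9, Cd9 and Jchain were called by DESeq2 but not by edgeR. Of the sorting markers limma called 2, Fcer2a and Cr2, edgeR called 1 and DESeq2 called 3, Fcer2a, Cr2 and Myc.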

How the data were processed

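RNA of 16 sorted populations was sequenced with a low-input kit that does not mark strand and has no molecular identifiers. The deposited values are a normalized signal, in which the authors had divided the count of each gene by the size factor of its library. Their processing notes name Trimmomatic 0.36, STAR 2.5.2a, RSEM 1.2.31, DESeq2 1.20.0, R 3.5.1 and GRCm38. Dividing by the smallest value above 0 gave whole reads for 100% of values (tolerance 0.01).

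Genes with a mean of at least 10 were tested with limma 3.58.1 (R 4.3.3) in 1 model of log2(normalized count + 1) over the 4 subpopulations, with a trended prior, Benjamini-Hochberg adjustment over all 12505 genes, and a call at an adjusted p under 0.05. On this scale low genes change less than their ratio. Alternatives used edgeR 4.0.16 and DESeq2 1.42.0 on the recovered reads, other pseudocounts, filters and scalings, and left out each library. The script was tested on simulated data. The members and lists were chosen with earlier results of these data known. Log2 differences are given where a member was called, or otherwise between its highest and lowest mean, and listed genes where called. Up to 5 genes of most similar pattern, neighbors within 100 kb and checks of the sort could also be named, and Il10rb, Tgfbr1, Maf and the like were named as context after their values were seen. Gene coordinates are from GENCODE M21 (8 of 8 members matched by identifier) and promoters from RefSeq GRCm38.p6.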

Additional observations from a re-analysis of the deposited data

Results flagged for a closer look

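Of 28 sets of 4 libraries with reads, 1 per member and subpopulation, 3 had a library far from its group, where chance flags about 5% of such sets. Il10 was 127 in cMyc+lateCD23int replicate 2 against 44.6 to 49.3 in the other 3. Tgfb1 was 194 in cMyc+early replicate 1 against 90.3 to 104, and 52.4 in cMyc+lateCD23lo replicate 2 against 96.9 to 103.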

How the results depend on the processing

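The count of called members was recomputed in 30 alternatives, 29 for the multigroup comparison, and 2 of them, without the libraries with Cd3e or Sdc1 above 3 reads, were added after seeing the data. Between the late subpopulations it was 0 in all 30. In cMyc+prePB against cMyc+early (1) it was 0 with only the groups compared and without the Sdc1 libraries. In cMyc+early against cMyc+lateCD23int (1) it was 0 with a pseudocount of 5, a mean of at least 50, quantile normalization, edgeR with the block, only the groups compared, and without the Cd3e or Sdc1 libraries. In cMyc+prePB against cMyc+lateCD23lo (1) it was 0 without a filter, without the trend, with only the groups compared and without the Cd3e libraries. In cMyc+early against cMyc+lateCD23lo (1) it was 2 with DESeq2, which added Ebi3, and in cMyc+prePB against cMyc+lateCD23int (0) it was 2 with DESeq2 (Ltb and Ebi3). In the multigroup comparison (1) it was 2 with a pseudocount of 5 and a mean of at least 50, and 3 with DESeq2 (Il10, Ltb and Ebi3). Leaving out 1 library gave 0 to 1 in cMyc+early against cMyc+lateCD23int and cMyc+prePB against cMyc+lateCD23lo, 1 to 2 in cMyc+early against cMyc+lateCD23lo, where cMyc+lateCD23lo replicate 1 gave the 2, and 1 to 3 in the multigroup comparison (2 without cMyc+prePB replicate 2, 3 without cMyc+lateCD23lo replicate 1). Fewer libraries or groups leave fewer degrees of freedom. The cause of the other changes was not tested. None of the 9 log2 differences printed for the members changed sign in these alternatives, and the other member differences were not recomputed.

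Libraries with the same replicate number deviated from their group means with correlations of -0.129 to 0.174. Since some were negative and the labels do not say what a number shares, the numbers were not taken to pair the samples, although 11 of 16 libraries correlated best with their own number, a hint from the data and not from the design. With the replicate block, limma called 1 member in cMyc+prePB against cMyc+lateCD23int (Ltb, adjusted p = 0.00753) and 3 in the multigroup comparison. edgeR with the block called 1 and 2 there, and 0 in cMyc+early against cMyc+lateCD23int. Over all genes the multigroup comparison called 51 in limma, 173 with the block, 29 in edgeR, 129 in edgeR with the block and 274 in DESeq2. The counts of cMyc+prePB against cMyc+early were 24, 65, 8, 54 and 131 in the same order, and those of cMyc+prePB against cMyc+lateCD23lo were 33, 192, 31, 142 and 273. The other comparisons called 1, 1, 1, 0 and 20 (cMyc+early against cMyc+lateCD23int), 1, 1, 1, 1 and 15 (late subpopulations), 35, 90, 23, 63 and 173 (cMyc+early against cMyc+lateCD23lo) and 18, 121, 11, 94 and 130 (cMyc+prePB against cMyc+lateCD23int). Per kb of the longest transcript Tgfb1 rose to 38.1 and remained below Il10 (55.2).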
